A study of Mus musculus with 12 samples.

Results

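The granins and the enzymes that turn neuropeptide precursors into active peptides were followed in mouse cortical cells given thyroid hormone. The set holds 10 genes: the granin and granin-related genes Scg2, Chga, Chgb, Vgf, Scg3 and Scg5, and the enzyme genes Pcsk1, Pcsk2, Cpe and Pam. They were chosen by their place in the dense-core vesicle and selected on their presence in the deposited expression table, where 10 of the 10 were found among 14801 genes. The choice was made with earlier results of these data known, the rise of Scg2 among them, so how many of the 10 changed is a description and not a test of the set. All 10 also passed the filter on low values and belong to the 13663 genes tested. The cells were primary cerebrocortical cells, all from wild-type fetuses taken on gestational day 17.5 and cultured for 9 days. The study compared 6 cultures given 10 nM triiodothyronine (T3, the active thyroid hormone) for 24 h with 6 cultures kept without T3, and the 2 kinds of culture are paired, since both were prepared from each of the 6 fetuses (mouse 1 to mouse 6). In both groups the B27 supplement was taken away 24 h before the addition of T3. Age and genotype were thus shared by all cultures, which are mixtures of cell types from the fetal cortex plated on laminin with horse serum, and not purified neurons.

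Dense-core vesicles store neuropeptides, neurotrophins and hormones and release them on demand. Granins are acidic secretory proteins that aggregate in the trans-Golgi network, help to load these vesicles, and are themselves cut into peptides. Inside the vesicle the prohormone convertases PC1/3 (Pcsk1) and PC2 (Pcsk2) cut precursors at paired basic residues, carboxypeptidase E (Cpe) trims the basic residues left at the new ends, and peptidylglycine alpha-amidating monooxygenase (Pam) amidates the end of many peptides. In the cortex these steps produce peptides such as somatostatin, neuropeptide Y and cholecystokinin.

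Several granin genes are known targets of the cAMP-responsive factor CREB, so the promoters were searched for the cAMP response element. RefSeq promoter windows on GRCm38.p6, from 250 bases before to 50 bases after the start, were matched for 8 of the 10 genes and not for Vgf and Cpe. The complete palindrome TGACGTCA lay 68, 72 and 78 bases before the start of Scg2, Chgb and Pcsk1, thus in 3 of 8 genes, against 1.79% of 32851 promoter windows. Its first 5 letters, TGACG, on either strand and including those inside the palindrome, were found in 7 of 8 genes and in 20.8% of all windows. The direct repeat of AGGTCA with 4 bases of any kind between the copies, bound by thyroid hormone receptors with their partner RXR, was in none of the 8 genes and in 0.0152% of all windows, and its unit AGGTCA was in none of the 8 and in 16.3%. A match is a stretch of letters and not a site shown to be bound, and the absence of a match says only that these letters are not in the window. The counts are of genes, while the shares are of windows. The cAMP motif was also searched because of known targets, so nothing is read from its counts beside the shares. The sequences below show the motif in its surroundings, 5′ to 3′ on the strand of the gene, with TGACGTCA, or TGACG on either strand, in capitals. Scg2 (chr1:79440076-79440105, minus strand) and Chgb (chr2:132781559-132781588, plus strand) are given as 30 bases around the motif, because GENCODE places these bases in an exon of a longer transcript, and Pcsk1 (chr13:75089737-75089825, plus strand), Chga (chr12:102554821-102554940, plus strand) and Pcsk2 (chr2:143546013-143546132, plus strand) as bases upstream of the start.
Scg2: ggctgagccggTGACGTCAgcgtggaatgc
Chgb: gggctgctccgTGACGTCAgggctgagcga
Pcsk1: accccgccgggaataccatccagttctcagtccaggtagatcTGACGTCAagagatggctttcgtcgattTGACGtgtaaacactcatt
Chga: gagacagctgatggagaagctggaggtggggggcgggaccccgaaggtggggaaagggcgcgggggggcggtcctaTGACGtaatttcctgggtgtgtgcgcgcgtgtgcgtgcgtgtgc
Pcsk2: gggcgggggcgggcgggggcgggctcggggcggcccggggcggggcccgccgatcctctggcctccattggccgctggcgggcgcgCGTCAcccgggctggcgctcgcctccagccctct
In Chga the motif is the incomplete form, 44 bases before the start, and in Pcsk2 it lies on the opposite strand, 34 bases before the start. Of the 3 genes with the complete palindrome, Scg2 rose with T3, while Chgb and Pcsk1 did not pass the test.

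The libraries held 5272092 to 10837895 reads, and in 6 of 6 mice more reads came from the culture with T3, at 1.03 to 1.67 times those of its partner. A value below is a TMM-normalized CPM, that is, the reads of a gene scaled by a library size that was corrected for composition, unless a scale is named. Markers fixed for neurons were present in all libraries: 8 of 8 were listed, with a summed level of 6743 to 8233 CPM with T3 and 7231 to 9168 CPM without T3. Of 7 markers of hormone cells of the pituitary and adrenal, 1 was listed, Pomc, with at most 1.91 CPM with T3 and 1.89 CPM without T3. The no-T3 library of mouse 4 stood apart: 52 genes lay over 4-fold above every other library in it, whereas the count of such genes was 0 in each of the other 11. Its summed level of 6 listed markers of heart and connective tissue was 1423 CPM, against 22.9 to 36.0 CPM in the T3 libraries and 20.8 to 44.4 CPM in the other libraries without T3.

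T3 moved members of the set both ways. Of the 10 genes 4 passed the test across all genes: Scg2 and Chga rose, and Pcsk2 and Pam fell. A gene was taken to pass when its adjusted p from limma, with the mouse as a block and Benjamini-Hochberg adjustment over 13663 genes, was under 0.05. Over all genes tested 5.52% passed, 3.37% higher and 2.14% lower; as the genes were chosen with results known, nothing is read from their share. The median log2 change of the 10 genes was 0.01, beside 0.00308 over all genes tested, with 5 genes above 0 and 5 below. The largest change among the 10 genes, that of Scg2, was 1.40-fold. In these bulk samples fewer cells of a type and less RNA per cell cannot be told apart. Markers of several cell types moved with T3 as well. Of 8 neuron markers 1 rose and 0 fell, with a median log2 change of -0.028. Their sum was lower with T3 in every mouse but mouse 4, which had 8011 CPM with T3 and 7624 CPM without T3. Of 8 excitatory neuron markers 1 rose and 3 fell, with a median log2 change of -0.14 and sums of 1489 to 1859 CPM with T3 and 1570 to 1808 CPM without T3. Of 10 inhibitory neuron markers, Sst and Npy included, 2 rose and 1 fell, with sums of 790.9 to 1171 CPM with T3 and 923.6 to 1026 CPM without T3. Their median log2 change was 0.0364. Of 8 oligodendrocyte lineage markers 3 rose, with a median log2 change of 0.203. Their sum, 449 to 565 CPM with T3 and 346 to 500.4 CPM without T3, was higher with T3 in 6 of 6 mice. Of 7 astrocyte markers tested 4 rose, with a median log2 change of 0.295, and the sum of the 8 listed was higher with T3 in 6 of 6 mice. The part of these shifts in the changes of the 10 genes and of the related lists was not tested.

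**Figure D1:**
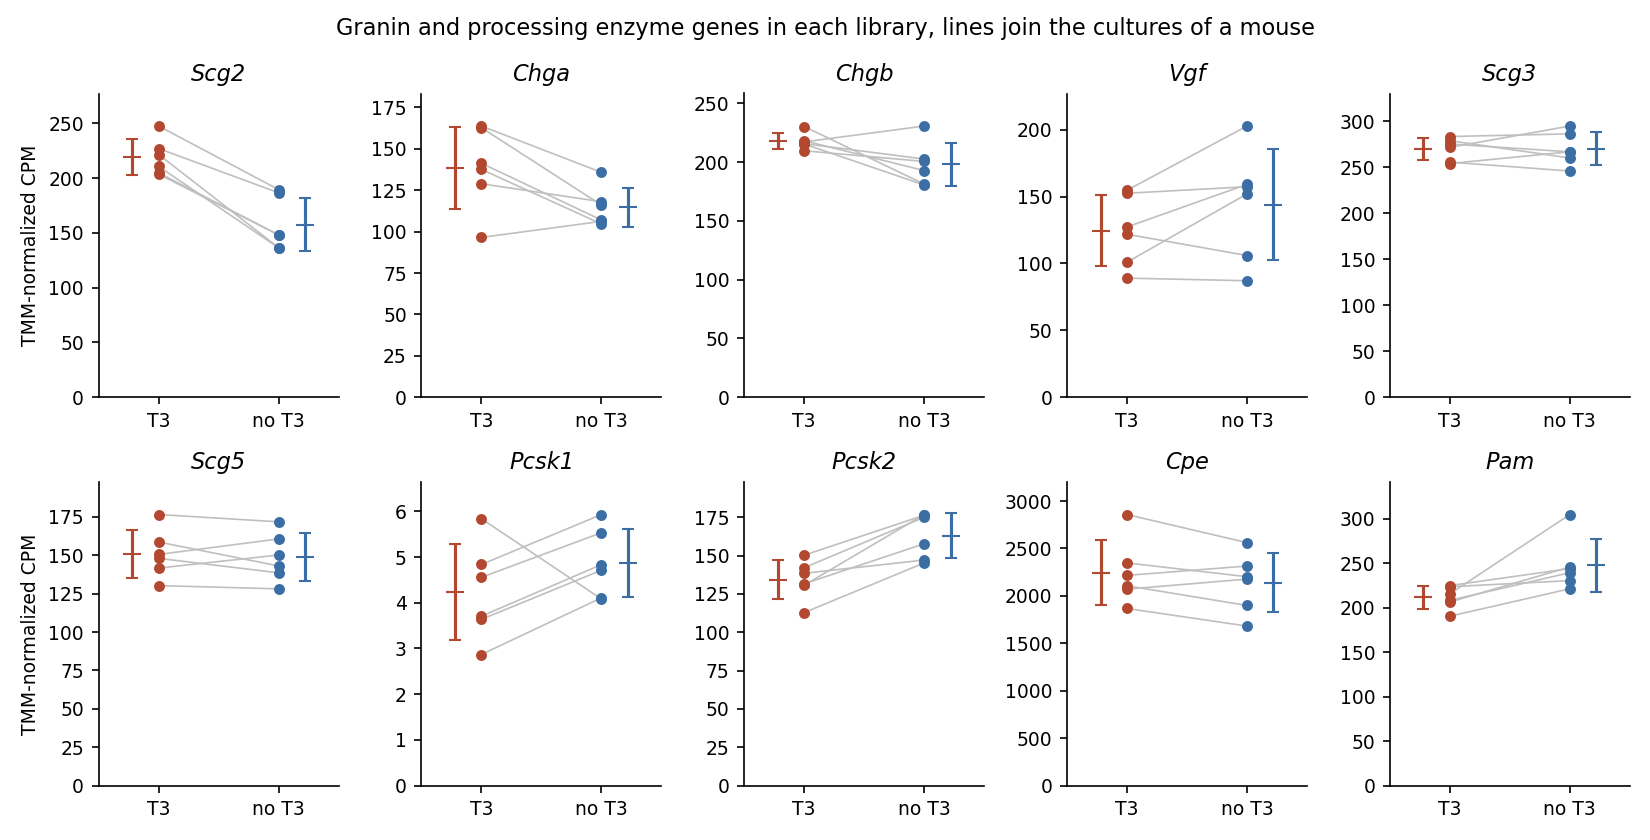
TMM-normalized CPM (vertical axes, from 0) of the 10 genes in the 6 cultures with T3 (left) and the 6 without T3 (right) of each panel. Each point is a library, lines join the cultures of a mouse, and the bars beside the points give the mean and SD; Scg2 is the gene whose groups do not overlap.

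Scg2, which encodes secretogranin II, the precursor of secretoneurin, showed the clearest rise. Its level with T3 ran from 204 to 247 CPM with a median of 216, and without T3 from 136 to 189 CPM with a median of 148. Every T3 library thus lay above every library without T3, a separation seen in 1.68% of all genes tested, toward higher values in 1.05% and toward lower values in 0.622%. The mean was 219 ± 16.7 CPM with T3 and 157 ± 24.2 CPM without T3 (SD, n = 6 each), a log2 change of 0.49 (SE 0.056, adjusted p = 9.55e-06). The rise was seen in 6 of 6 mice and ran from 1.22-fold in mouse 3 to 1.62-fold in mouse 6. The cultures of mice 5 and 6 had the lowest levels without T3, 136 CPM each, and the largest rises. The level without T3 is part of the rise, so a low level makes the rise larger by itself, and nothing is read from this. The gene lies on chromosome 1 from 79434669 to 79440120 on the minus strand (GRCm38, GENCODE M21), has 2515 bases of exon, and had 798 to 2345 reads per library. It passed under all 15 alternative settings.

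Chga, which encodes chromogranin A, the precursor of pancreastatin and catestatin, rose less evenly. It ran from 96.5 to 164 CPM with T3 (median 139) and from 105 to 136 CPM without T3 (median 112), so the groups overlapped. The log2 change was 0.26 (SE 0.068, adjusted p = 0.0295), with a rise in 5 of 6 mice. Mouse 1 was the exception, with 96.5 CPM with T3 and 106 CPM without, while mouse 6 had the largest rise, 1.40-fold. The call was lost without mouse 3, 4, 5 or 6 (adjusted p = 0.106, 0.108, 0.104 and 0.116) and without the mouse as a block (0.418), and without mouse 1 the log2 change was 0.34 (adjusted p = 0.000629).

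Chgb, which encodes chromogranin B, did not pass. Its level was 210 to 230 CPM with T3 and 181 to 231 CPM without T3, higher with T3 in 5 of 6 mice. The log2 change was 0.14 (95% interval 0.0254 to 0.256, adjusted p = 0.169). The T3 cultures were nearly alike, with a coefficient of variation of 3.13%, against 9.33% without T3. The change in Scg2 was larger than that in Chgb in each of the 6 mice, as it was larger than those in Chga, Scg3, Scg5 and Cpe.

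Vgf encodes a neuropeptide precursor that is induced by neurotrophins and neuronal activity, and it varied most between mice among the genes with over 10 CPM. It ran from 89.0 to 155 CPM with T3 (median 125) and from 87.1 to 203 CPM without T3 (median 155). Its log2 change was -0.19 (95% interval -0.375 to 0.00464, adjusted p = 0.3). It was lower with T3 in mice 1 to 4, by log2 values of -0.59, -0.32, -0.39 and -0.05, and higher in mice 5 and 6, by 0.20 and 0.03. With 1 mouse left out at a time, the log2 change was smallest without mouse 1, -0.10 (adjusted p = 0.459). It was largest without mouse 5, -0.26 (adjusted p = 0.0676). Mice 5 and 6 were also those with the lowest levels without T3, 106 and 87.1 CPM, but that level is part of the change, so nothing is read from this.

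Scg3 and Scg5 serve other members of the set. Secretogranin III (Scg3) binds chromogranin A and carboxypeptidase E at the granule membrane, and the 7B2 protein (Scg5) is the chaperone that PC2 needs to mature. Scg3 averaged 269.9 ± 12.3 CPM with T3 and 270.3 ± 17.8 CPM without T3 (SD, n = 6 each), with 3 mice higher and 3 lower. Its log2 change was -0.00041 (95% interval -0.0999 to 0.099). Scg5 averaged 151 ± 15.7 CPM with T3 and 149 ± 15.7 CPM without T3 (SD, n = 6 each), and its log2 change was 0.02 (95% interval -0.0847 to 0.128). Neither passed (adjusted p = 0.998 and 0.885).

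**Figure D2:**
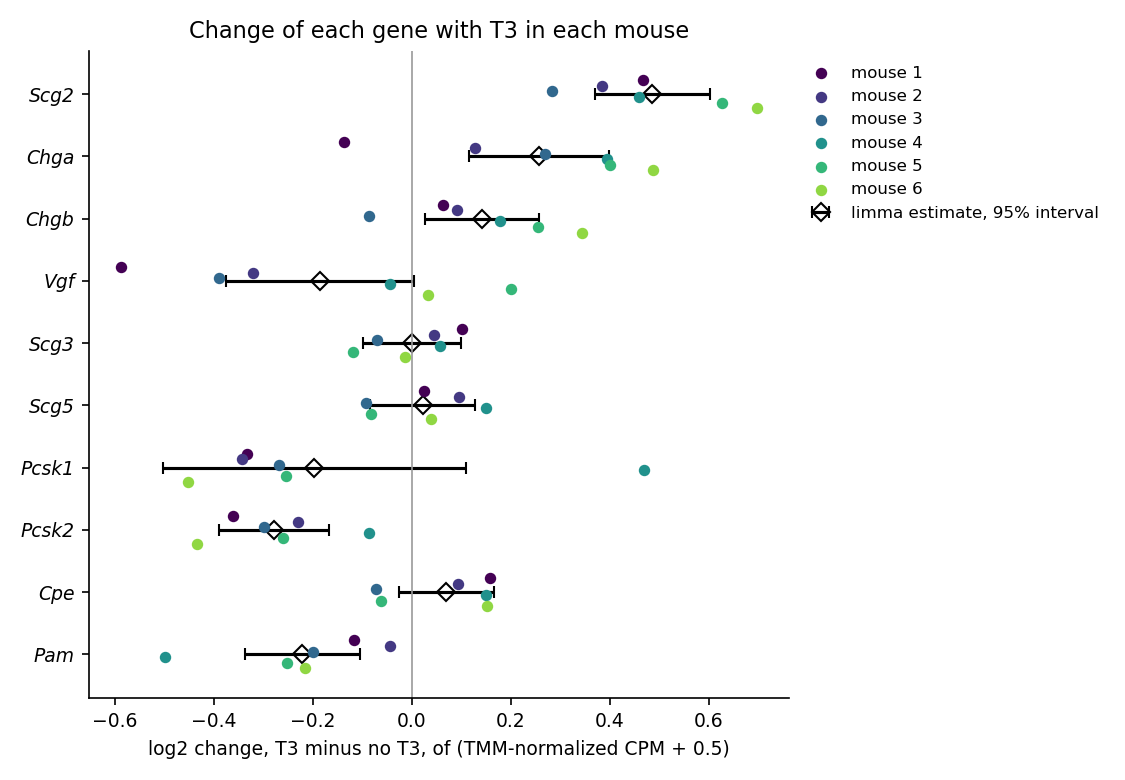
Log2 change, T3 minus no T3, of TMM-normalized CPM plus 0.5 (horizontal axis) for each of the 10 genes (rows). Coloured points are the 6 mice, and open diamonds with bars are the limma estimate with its 95% interval; Scg2, Pcsk2 and Pam have all 6 mice on the same side of 0, and Vgf spreads from -0.59 to 0.20.

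Pcsk2, the gene for the convertase PC2, fell. It ran from 113 to 150 CPM with T3 (median 135) and from 145 to 177 CPM without T3 (median 166), so the groups overlapped by the highest T3 culture, that of mouse 2, which lay above mice 1 and 4 without T3. The mean was 134 ± 12.8 CPM with T3 and 163 ± 14.9 CPM without T3 (SD, n = 6 each), and the log2 change was -0.28 (SE 0.053, adjusted p = 0.00232). It was lower in 6 of 6 mice, from 0.942 times the level without T3 in mouse 4 to 0.740 times in mouse 6. The call was kept without any 1 mouse (adjusted p from 0.0021 to 0.0182) and lost without the mouse as a block (0.0929). The gene lies on chromosome 2 from 143546156 to 143816285 on the plus strand. The antisense genes Pcsk2os1 and Pcsk2os2 cover 4.5% of its 7910 exon bases, and this library kit does not mark strand. The change in Pcsk2 lay below that in Scg5, the gene of its chaperone, in 6 of 6 mice. It likewise lay below those in Scg2, Scg3, Chga, Chgb and Cpe in every mouse, so nothing particular to the chaperone is read from this.

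Pcsk1, the gene for the convertase PC1/3, had the fewest reads of the set. It had 2.87 to 5.84 CPM with T3 and 4.08 to 5.93 CPM without T3, with 22 to 51 reads per library. It was lower with T3 in 5 of 6 mice and higher in mouse 4, where it had 5.84 CPM with T3 and 4.08 CPM without. The log2 change was -0.20 (95% interval -0.503 to 0.109, adjusted p = 0.551), an interval that includes both 0 and a fall larger than that of Pcsk2. Without mouse 4 the log2 change was -0.33 (adjusted p = 0.237). The no-T3 library of mouse 4 stood apart in other genes, but its Pcsk1 value was close to the 4.11 CPM of mouse 6 without T3.

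Pam, the amidating enzyme gene, fell, and 1 library without T3 stood above the others. It ran from 190.3 to 225 CPM with T3 (median 212) and from 221 to 304 CPM without T3 (median 241). The log2 change was -0.22 (SE 0.055, adjusted p = 0.0197), and Pam was lower in 6 of 6 mice, from 0.970 times in mouse 2 to 0.708 times in mouse 4. The value of 304 CPM belongs to the no-T3 library of mouse 4, the library with the heart and connective tissue transcripts, and the other 5 libraries without T3 reached 246 CPM at most. Pam is known to be abundant in the heart, and the part of those transcripts in its value was not tested. Without mouse 4 the log2 change was -0.17 (adjusted p = 0.102), and the call was also lost without mouse 3 (0.0707) and without the mouse as a block (0.2). The gene lies on chromosome 1 from 97795114 to 98095646 on the minus strand.

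Cpe, the carboxypeptidase gene, had by far the highest values and did not pass. It ran from 1868 to 2858 CPM with T3 (median 2162) and from 1682 to 2561 CPM without T3 (median 2189.7). The T3 culture had more Cpe in mice 1, 2, 4 and 6 and less in mice 3 and 5, and the log2 change was 0.07 (95% interval -0.0266 to 0.165, adjusted p = 0.491). The spread between mice was larger than any change with T3: mouse 1 had the highest level and mouse 6 the lowest in both groups. Astrocytes are known to express Cpe too. The summed level of 8 astrocyte markers was likewise highest in mouse 1, with 3205 CPM with T3 and 2741 CPM without T3, and lowest in mouse 6, with 1229 and 812.8 CPM. The part of the astrocyte content in the levels of Cpe was not tested.

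**Figure D3:**
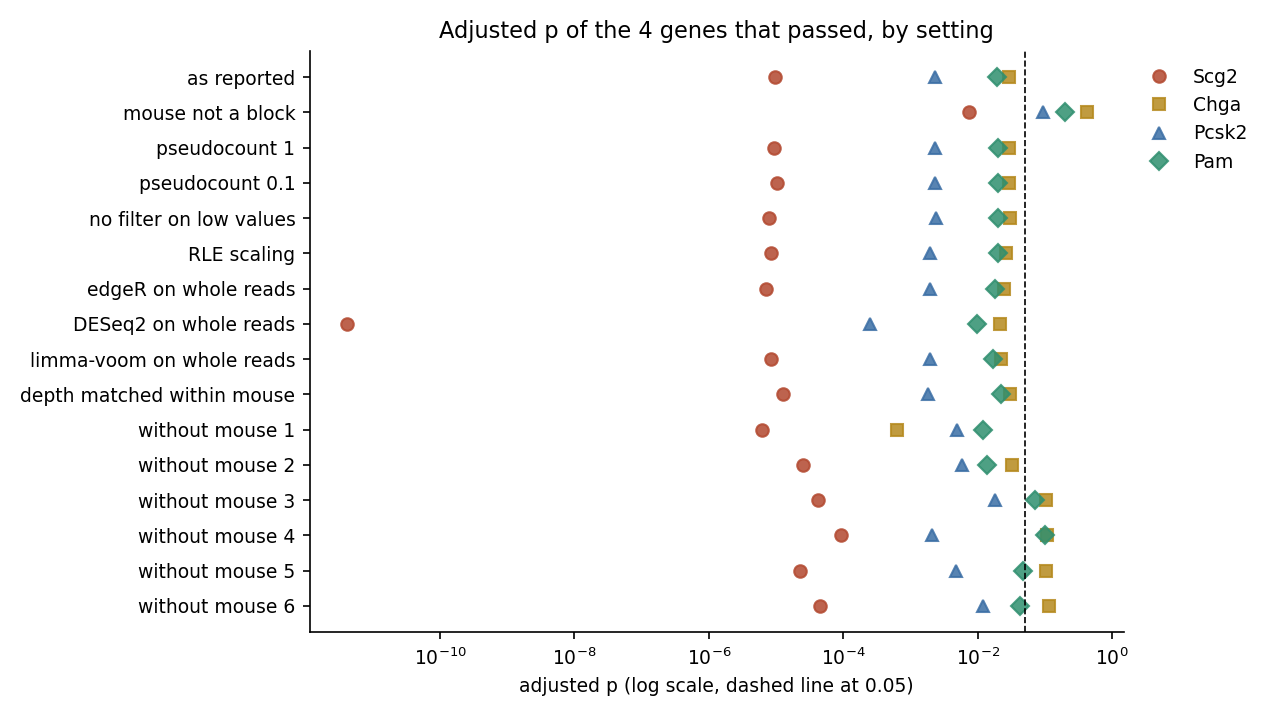
Adjusted p (horizontal log axis, dashed line at 0.05) of the 4 genes that passed, as reported and under 15 other settings (rows). Scg2 stays left of the line in all rows and Pcsk2 in all but the fit without the mouse as a block, while Chga crosses it in 5 rows and Pam in 3.

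Levels between genes were compared as CPM per kilobase of exon, without T3, as a description. Cpe stood first with 820.0 ± 119 CPM per kb (SD, n = 6), above 99.9% of the genes with a known length. Scg3 (98.7 ± 6.50) and Scg5 (94.8 ± 10.0) followed with ranges that overlapped, and then Chgb (72.3 ± 6.74) and Scg2 (62.6 ± 9.63), again with overlapping ranges. Vgf (48.4 ± 13.96) and Chga (41.6 ± 4.27) overlapped each other. The range of Vgf, 29.3 to 68.2, also overlapped those of Scg2, from 54.2, and Chgb, from 65.9. That of Chgb, up to 84.2, overlapped that of Scg5, from 81.7. Pam (20.8 ± 2.47) and Pcsk2 (20.6 ± 1.88) were alike on this scale, and Pcsk1 was lowest with 0.868 ± 0.133 CPM per kb (SD, n = 6), above 14.9% of genes. PC2 transcripts were thus far more abundant per length than PC1/3 transcripts in these cultures. With T3 Scg2 stood at 87.1 ± 6.63 CPM per kb and Chgb at 79.5 ± 2.49 (SD, n = 6 each), so the mean of Scg2 was above that of Chgb in this group, with ranges that still overlapped. The order depends on the length used: per base of the longest transcript, Scg5 stood above Scg3, and Chga and Pam above Vgf, and the annotated exons of Pam add up to 11892 bases and its longest transcript to 4102.

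**Figure D4:**
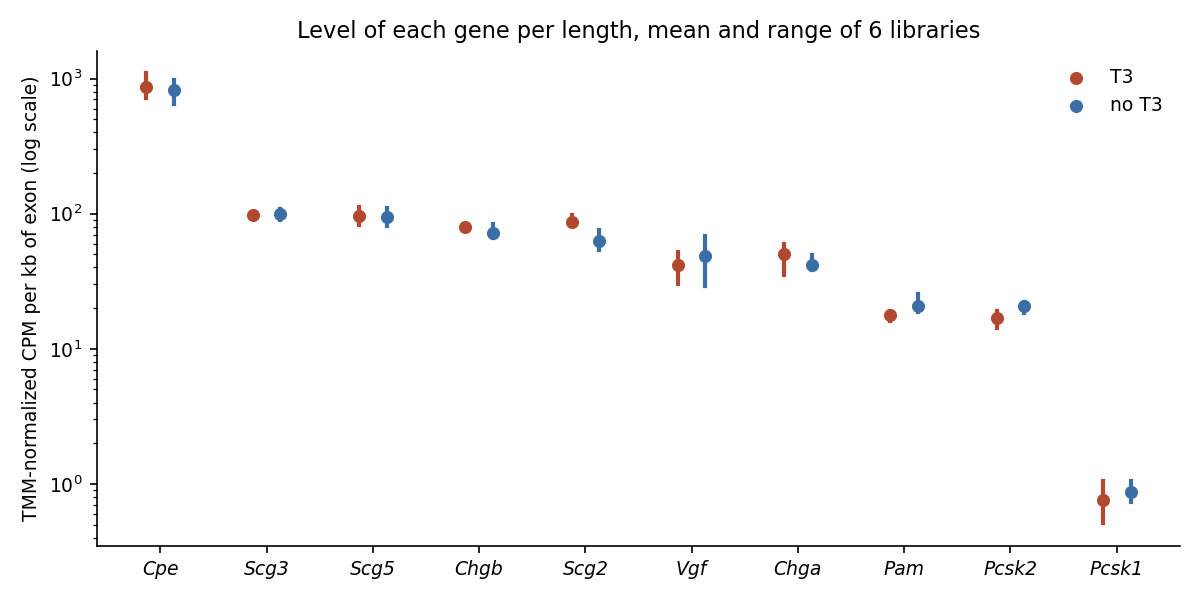
TMM-normalized CPM per kb of exon (vertical log axis) of the 10 genes, ordered by level without T3; points are means and lines the range of 6 libraries with T3 (left of each pair) and 6 without T3 (right). Cpe lies near 820 and Pcsk1 near 0.868 without T3, with the other 8 genes between 20.6 and 98.7.

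The genes around the set were taken from 5 lists with 128 genes, of which 104 were tested. The first holds neuropeptide precursors, the substrates of these enzymes. Of 16 tested 2 rose and 4 fell, with a median log2 change of -0.11, beside 0.00308 over all genes. Pnoc, the nociceptin precursor, averaged 24.5 ± 3.16 CPM with T3 and 15.0 ± 1.52 CPM without T3 (SD, n = 6 each), with groups that did not overlap and a rise in 6 of 6 mice (log2 change 0.68, adjusted p = 0.000106). Npy, the neuropeptide Y precursor, rose by 0.34 on the log2 scale in 5 of 6 mice (adjusted p = 0.0268). Cck, the cholecystokinin precursor, fell by 0.28, Grp, the gastrin-releasing peptide precursor, by 0.41, and Adcyap1, the PACAP precursor, by 0.38, each in 6 of 6 mice. Sst, the somatostatin precursor, fell by 0.31 and was lower in 5 of 6 mice (adjusted p = 0.0319). The levels of Sst were 110 to 203 CPM with T3 and 178 to 228 CPM without T3. The calls of Npy, Sst and Adcyap1 were lost in 6, 4 and 8 of the 15 settings, that of Cck without mouse 3 and without the block, and that of Grp without the block.

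Of 16 other convertases and trimming enzymes 3 rose with T3, with a median log2 change of 0.13. The lysosomal proteases cathepsin L (Ctsl, log2 change 0.29, adjusted p = 0.0019) and cathepsin B (Ctsb, 0.23, adjusted p = 0.00397) rose in 6 of 6 mice, and cathepsin L is known to cut neuropeptide precursors as well. Genes on the other strand cover 26.8% of the Ctsl exons and 12.8% of the Ctsb exons, among them Fdft1 beside Ctsb. Pcsk5, the convertase PC5/6, rose by 0.29 in 5 of 6 mice, a call lost in 9 of 15 settings (adjusted p = 0.0479). None of this list fell in limma, edgeR, DESeq2 or limma-voom at the adjusted threshold, and 1 was lower at an unadjusted p under 0.05 in limma. Of 10 peptide-degrading enzymes 1 rose, the neprilysin gene Mme (log2 change 0.48, adjusted p = 0.0456, lost in 10 of 15 settings), and none fell with any of these tools (1 was lower at an unadjusted p under 0.05 in limma). The median log2 change of this list was 0.00459. Prepl had a log2 change of -0.12 (adjusted p = 0.168).

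Among genes for vesicle formation and release 3 of 38 tested rose and 2 fell, with a median log2 change of 0.02. Sorl1, a sorting receptor of the Golgi and endosomes, averaged 190.1 ± 10.6 CPM with T3 and 119 ± 9.24 CPM without T3 (SD, n = 6 each), a log2 change of 0.68 (adjusted p = 4.7e-08). Cadps, the CAPS1 protein that primes dense-core vesicles for release, averaged 362 ± 15.6 CPM with T3 and 278 ± 21.4 CPM without T3 (SD, n = 6 each), a log2 change of 0.38 (adjusted p = 1.29e-05). For both genes the groups did not overlap. Syt9, a calcium sensor of vesicle release, fell by 0.39 on the log2 scale (adjusted p = 0.00225), and its groups did not overlap either, with 23.4 to 26.2 CPM with T3 and 27.3 to 38.4 CPM without T3. Syt4, a synaptotagmin of dense-core vesicles, fell by 0.28 in 6 of 6 mice (adjusted p = 0.00183), and an antisense gene covers 14.5% of its exons. Rph3a, a Rab3 effector, rose by 0.20 in 5 of 6 mice (adjusted p = 0.0462, lost in 7 of 15 settings).

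Of 24 genes tied to activity or cAMP, a route that is known to induce Vgf, Scg2 and Pcsk1, 2 fell and the median log2 change was 0.02. Most are listed as responders, while Creb1 and Crtc1 act within the route. The transcription factor genes Fosl2 (log2 change -0.51, adjusted p = 1.23e-05) and Nr4a3 (-0.32, adjusted p = 0.000304) were lower in 6 of 6 mice. None rose in limma, edgeR, DESeq2 or limma-voom, and 2 were higher at an unadjusted p under 0.05 in limma. In the 5 lists the shares that passed were 37.5%, 18.8%, 10.0%, 13.2% and 8.33% in the order given, beside 5.52% over all genes, and no test compared them. As the lists were also chosen with earlier results of these data known, nothing is read from these shares.

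**Figure D5:**
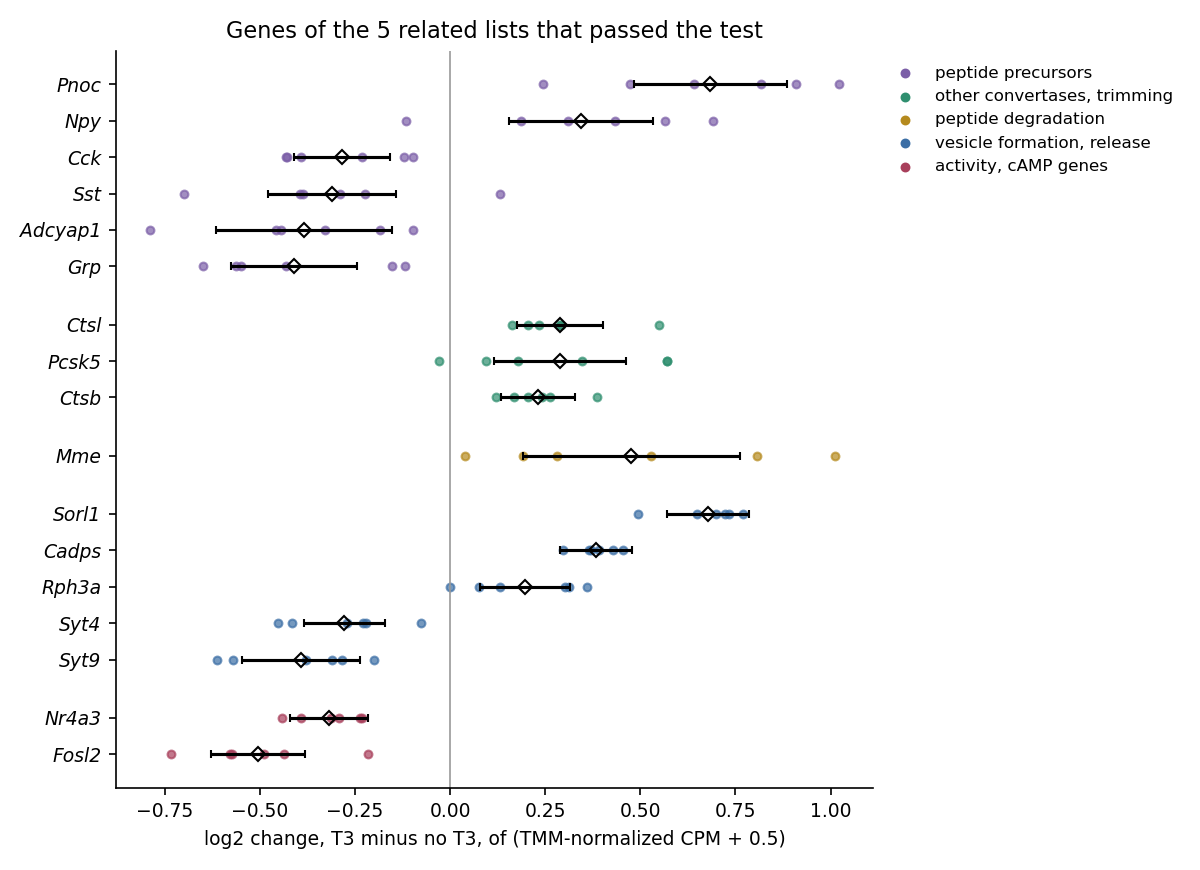
Log2 change, T3 minus no T3, of TMM-normalized CPM plus 0.5 (horizontal axis) for the 17 genes of the 5 lists that passed the test (rows). Points are the 6 mice, coloured by list, and open diamonds with bars are the limma estimate with its 95% interval; Pnoc and Sorl1 have the largest rises, 0.68 each, and Fosl2 the largest fall, -0.51.

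The genes whose 6 changes per mouse lay closest to those of Scg2, by the root mean square difference on the log2 scale among 12402 named genes, were Syt12 (0.0735), Cd9 (0.0943), Galnt14 (0.0958), Arl4d (0.107) and Ptch1 (0.118). They encode a synaptotagmin, a tetraspanin of the cell membrane, an enzyme of protein O-glycosylation, a small GTPase and the Hedgehog receptor. Their log2 changes were 0.53, 0.53, 0.49, 0.50 and 0.47, each with a rise in 6 of 6 mice, a size and direction that follow from how they were picked. Syt12 had only 17 to 52 reads per library, and its call (adjusted p = 0.0319) was lost in 7 of 15 settings. Genes on the other strand cover 17.2% of the exons of Syt12 and 10.7% of those of Cd9.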

How the data were processed

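The authors deposited a normalized signal, TMM-normalized CPM per gene, in a table of the series and in 12 files of single libraries that held the same values (largest difference 5.1e-11). The submitters' processing notes name CASAVA, FastQC, Bowtie, TopHat, HTSeq, edgeR and GRCm38, without versions. Libraries were made from 500 ng of RNA with a kit that does not mark strand, and read as 75 bases, per the labels' protocols. Every listed gene had at least 1 CPM in at least 2 of the 12 libraries. All values (100%, tolerance 0.01 reads) were whole multiples of 1 read, worth 0.0911 to 0.186 CPM, which gave the reads used by count tests. A count of 0, taken as 3 reads, would allow up to 0.273 to 0.557 CPM, for counting error only.

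The plan named edgeR for raw counts and limma for TMM-scaled values, and limma therefore applied. Values were transformed as log2(value + 0.5), which understates changes of low genes, and fitted by limma (version 3.58.1, R 4.3.3) with a term for the mouse, a mean-variance trend and robust variances. The filterByExpr rule of edgeR 4.0.16 kept 13663 genes. P-values are two-sided, Benjamini-Hochberg adjusted, threshold 0.05. The pairing comes from the series' design; deviations from group means correlated by 0.237 to 0.638 within the 6 pairs. Pairs of libraries from the same group differed by more than counting noise (chi-square per degree of freedom at least 2.41).

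The 10 genes and the lists were chosen with earlier results of these data known. Named from each list are the members that passed, the 6 with the smallest p at most, or with fewer than 2 passing the 2 smallest p. Alternatives were no block, other pseudocounts (1 and 0.1), no filter, the DESeq2 1.42.0 size factors (RLE), edgeR, DESeq2, limma-voom, matched depth and leaving out each mouse. Symbols were found for 14648 of 14801 identifiers. Exons come from GENCODE M21 and promoters from RefSeq.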

Additional observations from a re-analysis of the deposited data

Results flagged for a closer look

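Of 56 groups of 6 libraries checked for the genes named from the set and its lists, 5 held a library whose gap to the nearest other one took over 0.625 of the range, which chance gives in about 1 of 20 groups. Without T3, Pam was highest in mouse 4, at 304.5 CPM, with a gap of 0.706 of the range. Grp was lowest in mouse 6 in both groups, with 10.78 CPM with T3 and 17.21 CPM without T3. Without T3, Sst was highest in mouse 3, at 228.1 CPM. Syt4 reached 794.9 CPM in mouse 6 without T3, its highest value there.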

How the results depend on the processing

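Scg2 passed under all 15 settings and Pcsk2 under 14. Without the mouse as a block (replicate block left out), 125 genes were higher and 53 lower over all genes, against 461 and 293 as reported; of the 10 genes 1 was then higher and 0 lower by limma (2 lower at an unadjusted p under 0.05, and 2 lower by edgeR, DESeq2 and limma-voom with the block), and of the list genes 3 were higher and 2 lower. The calls of Ctsl, Ctsb, Syt4, Nr4a3, Cd9, Galnt14, Arl4d and Ptch1 were lost in that fit (adjusted p from 0.0573 to 0.486) and in no other setting. DESeq2 called 5 of the list genes higher, against 9 as reported. Leaving out each mouse in turn gave 304 to 530 higher and 154 to 330 lower genes, 1 to 2 of the 10 higher and 1 to 2 lower, and 5 to 8 list genes higher and 5 to 8 lower; the lowest counts over all genes, 304 and 154, came without mouse 3, and 191 genes were lower without mouse 5. The log2 change of Scg3 then ran from -0.021 to 0.023 and that of Scg5 from -0.0040 to 0.044, so their signs were not stable. Per base of the longest transcript, the levels without T3 were 113 CPM per kb for Scg3, 123 for Scg5, 60.9 for Chga, 34.5 for Pcsk2, 1011 for Cpe and 60.3 for Pam, since that length is shorter than the union of exons. RLE scaling moved the median change of all genes by -0.00502. Among the 10 genes Pcsk1 had the fewest reads, 22 to 51 per library.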
